A study of Mus musculus with 14 samples.

Results

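The integrins and laminins are described here as 34 mouse genes measured by RNA sequencing: 16 integrin alpha chains, 8 integrin beta chains and 10 laminin chains, without the platelet chain Itga2b. They were chosen by gene symbol, and 35 of the 53465 genes of the count table carry one of these symbols, since Itgam stands on 2 gene IDs. The second Itgam ID lies over the first on chromosome 7 and held 3 reads in all, so "Itgam" below is the ID that begins at chr7:128062640-128118491 (GRCm38). The libraries are dorsal skin and AGM tissue (aorta-gonad-mesonephros, the trunk region in which the first blood stem cells arise) of wild type C57BL/6 mouse embryos. Skin has 4 embryonic days from E9.5 through E10.5 and E12.5 to E14.5, with 1 library titled E and 1 titled ES on each day, and the ES titles belong to another sequencing project. AGM has 3 labelled ages from E9.5 through E10.5 to E11.5, with 2 libraries each, made in 2 sequencing rounds. The labels name no separate embryos or litters, so the p-values speak of the spread between libraries alone, which may be technical. No project holds both tissues, so tissue and project cannot be told apart.

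Integrins are cell surface receptors built from 1 alpha and 1 beta chain, and they tie the cytoskeleton to the matrix outside the cell. Laminins are secreted trimers of an alpha, a beta and a gamma chain, and they form the sheet of the basement membrane that underlies epithelia and surrounds vessels and muscle. In epidermis the pair of Itga6 and Itgb4 anchors basal keratinocytes in hemidesmosomes to the laminin trimer that holds Lama3 and Lamb3, and Itgb1 pairs with most of the other alpha chains.

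Depth was 6770338 to 29534551 counts per library, and no pair of libraries held identical values. The labels were checked against marker genes. Among the skin libraries titled E, the summed level of 6 keratinocyte markers was 72.7, 31.5, 239 and 3590 CPM from E9.5 to E14.5, where CPM is the read count scaled to a common library total. In the ES libraries the same sum was 2.98 to 9.01 CPM, and 5 endothelial markers summed to 14.7 to 30.3 CPM against 286 to 559 CPM in titles E. Fibroblast markers were present in the ES libraries, at 5460 to 7480 CPM, while the markers of epidermis and of vessels were low. Of the latter, Kdr was 7.19 to 25.6 CPM and Cdh5 2.49 to 8.42 CPM there. In AGM the timing genes ran against the labels. Lin28a, a factor of early embryos that falls with age, stood at 571 and 496 CPM in the libraries labelled E11.5, at 121 and 129 CPM in those labelled E10.5 and at 23 and 40.8 CPM in those labelled E9.5. Nr5a1, a gene of the gonad and adrenal primordium, stood at 0.0806 and 0 CPM in the libraries labelled E11.5 and at 17 and 13.4 CPM in those labelled E9.5, and Cdh16, a kidney tubule cadherin, at 0 in both of the former and at 15.3 and 12.7 CPM in the latter. These genes were chosen after their values were seen. No library was reassigned, AGM groups are called "the libraries labelled" with their age throughout, and every direction between them is a direction between labels.

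**Figure D1:**
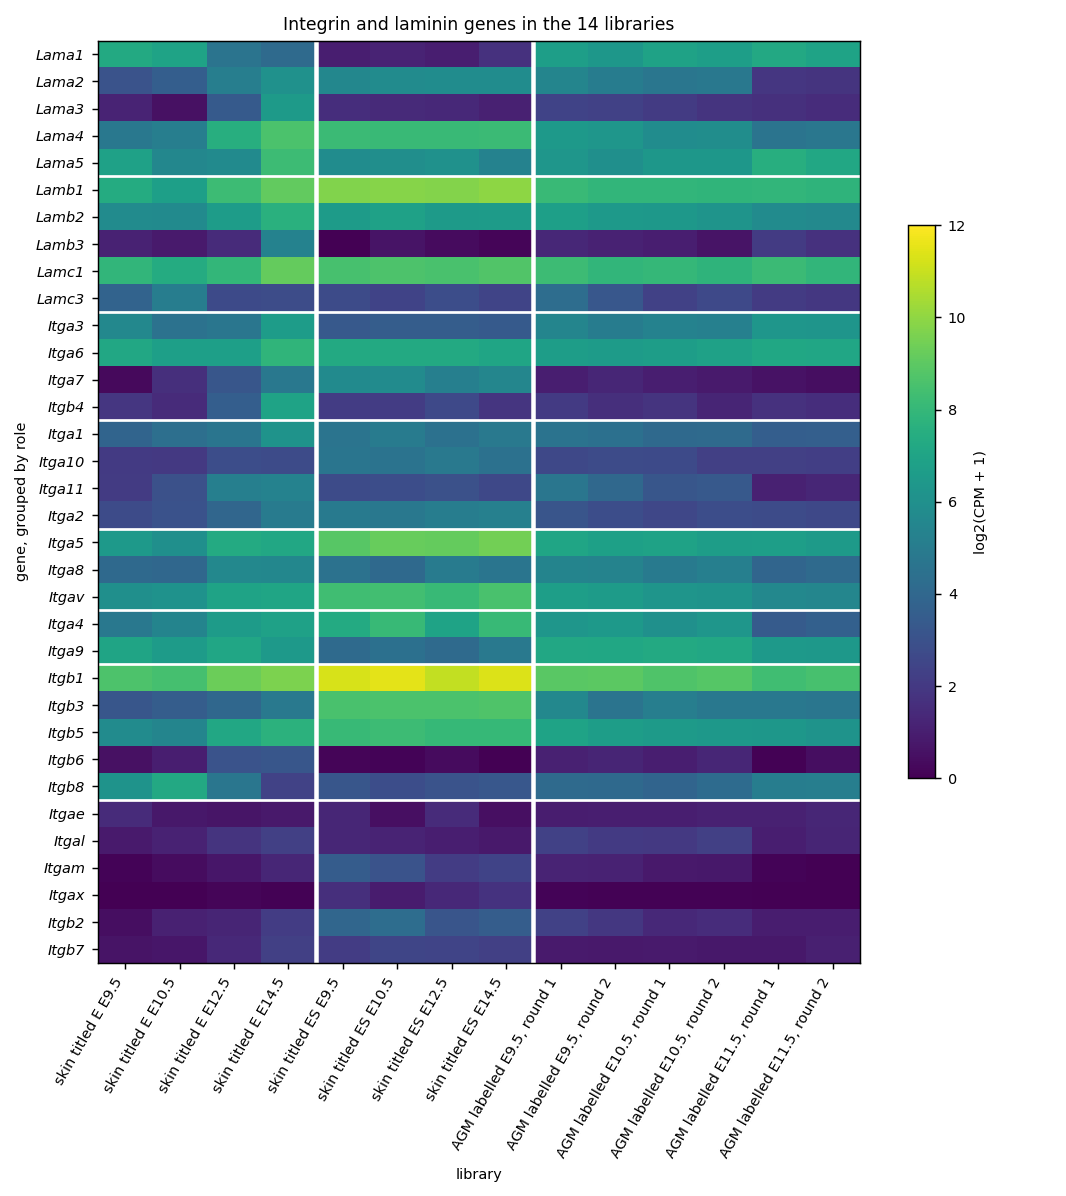
Levels of the 34 genes as log2(CPM + 1) in each of the 14 libraries, with genes in rows by role (white lines) and libraries in columns by tissue and title. Itgb1 is the brightest row, and the 4 libraries titled ES stand apart in rows such as Lama1 (dark) and Itgb3 (bright).

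Compared per length, as RPKM (CPM per 1000 exon bases), Itgb1, the common beta chain, was the highest of the members in all 14 libraries, at 78.8 to 722 RPKM. Its transcripts made 69.5% to 82.1% of the summed RPKM of the 8 beta chains. Among the alpha chains Itga5, the fibronectin receptor chain, gave the largest share in every library, with 22.1% to 30.7% of the alpha chain sum in the skin libraries titled E, 25.2% to 30.1% in AGM and 52.6% to 59.5% in the ES libraries. Lamc1, the gamma chain of most laminins, at 20.2 to 69.3 RPKM, and Lamb1, at 10.9 to 101 RPKM, were the highest laminin chains in 13 of the 14 libraries. In the skin library titled E at E10.5, Lama1 at 12.9 RPKM stood above Lamb1 at 10.9 RPKM. At the other end, the leukocyte chains Itgae, Itgal, Itgam and Itgax never passed 2.03 RPKM. Over the days the titled E libraries varied most: the median member differed 5.1-fold between its highest and lowest library there, 2.26-fold among the 6 AGM libraries and 1.44-fold among the ES libraries, and 25 of the 32 members with a count in every ES library varied less than 2-fold across their 4 days.

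The laminin alpha chain, which sets which receptors a laminin trimer binds, changed its leading gene with the day of skin. Lama1, the alpha chain of the earliest embryonic basement membranes, made 55.1% and 63.3% of the summed RPKM of the 5 alpha chains at E9.5 and E10.5 in the libraries titled E, and 9.75% and 2.33% at E12.5 and E14.5. Lama4, the chain of vessel and mesenchymal laminins, made 7.73%, 13.7%, 60.4% and 44.3% on the same days. Lama5, which is widespread in later epithelia, made 35.1%, 19.5%, 18.2% and 36.2%. Lama3, the epidermal chain, reached 11.6% at E14.5 from 0.201% at E10.5. The AGM libraries kept a share of Lama1 of 37.2% to 47.2%, and Lama5 made 24.4% and 23.7% in those labelled E9.5 against 47.6% and 45.2% in those labelled E11.5. In the ES libraries Lama4 made 70.9% to 77% and Lama1 at most 0.747%.

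**Figure D2:**
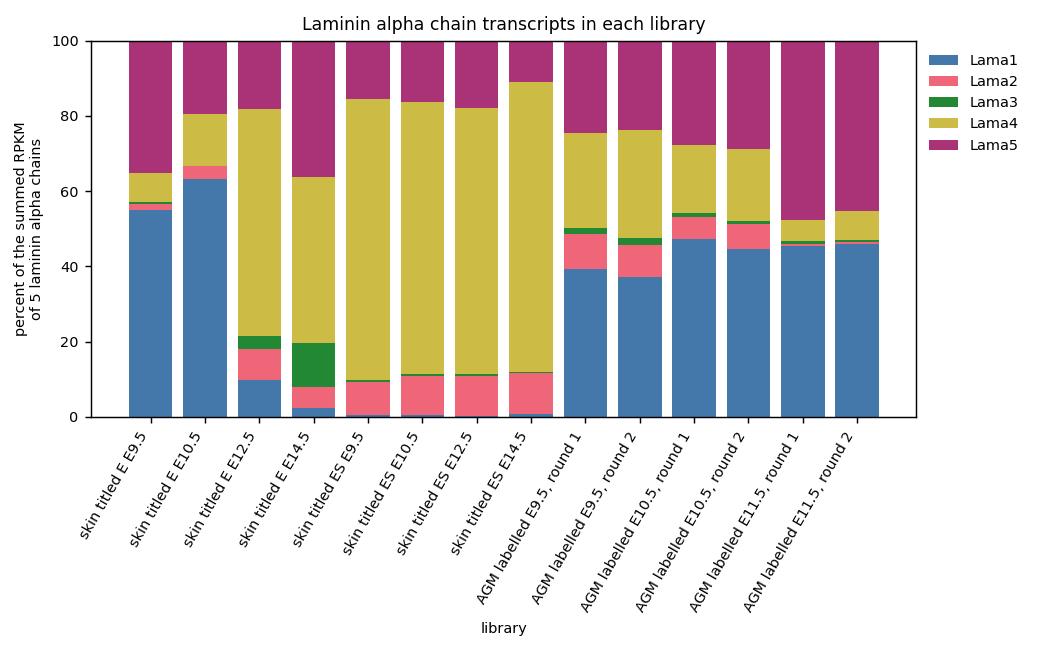
Share of each laminin alpha chain in the summed RPKM of the 5 chains, in percent, for each of the 14 libraries. Lama1 leads in the skin libraries titled E at E9.5 and E10.5, Lama4 leads in those at E12.5 and E14.5 and in all 4 titled ES, and Lama1 and Lama5 together make most of the AGM bars.

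The skin days were compared within the libraries titled E, by edgeR's quasi-likelihood test over 19945 genes in a fit with the AGM libraries. Each day is 1 library, so the test assumes that skin libraries vary like the AGM pairs (coefficient of variation 12.1%), and no change below has a replicate of its own. From E9.5 to E10.5, 2 of the 33 members tested rose and 3 fell, where 4.64% of all genes rose and 1.79% fell. Lama5 fell from 115 to 45.4 CPM (log2 change -1.34 ± 0.21 SE, adjusted p = 0.009194). Itga3, which pairs with Itgb1 as a laminin receptor of epithelia, fell from 47.1 to 22.1 CPM, and Lamb1 fell from 168 to 108 CPM, a call that was lost without any 1 of 4 AGM libraries, those labelled E10.5 and E11.5 (adjusted p up to 0.0786). Itgb8, a beta chain that activates TGF-beta and is strong in neural tissue, rose from 70 to 149 CPM (1.09 ± 0.17, adjusted p = 0.008186). The summed level of 5 neural markers was 501 and 1810 CPM in these libraries, and its part in the result was not tested. Itga7, the laminin receptor chain of muscle, rose from 0.251 to 2.02 CPM. With the AGM round as a block, 16 members passed in place of 5, and the share of all genes past the threshold went from 6.43% to 19.4%. The block added Itga4, Itga1, Lama4 and Lamc3 among the higher and Itga5, Itga6, Itga9, Itgb5, Lama1, Lama3 and Lamc1 among the lower.

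Between E10.5 and E12.5, 17 of 33 members rose and 3 fell, where 17.4% of all genes rose and 12.7% fell. The median member changed by 0.98 on the log2 scale against 0 for all genes tested. The 3 that fell were Itgb8, from 149 to 24.8 CPM, Lama1, from 125 to 23.8 CPM (-2.44 ± 0.22, adjusted p = 0.0001565), and Lamc3, a gamma chain with a limited range of tissues, from 33.1 to 5.42 CPM. Lama4 (chr10:38965515-39110188) rose from 33.8 to 184 CPM (2.39 ± 0.14, adjusted p = 3.052e-05). All 3 alpha chains that bind the RGD motif of fibronectin and related proteins rose, as Itga5 from 62.2 to 158 CPM, Itgav from 68.5 to 125 CPM and Itga8 from 14.9 to 47.2 CPM. Among the collagen receptor chains, Itga11, which is typical of fibroblasts, rose from 6.82 to 35.1 CPM and Itga2 from 7.13 to 14.6 CPM, the latter a call that DESeq2 did not make (adjusted p = 0.06049). Itgb6, the partner of Itgav in epithelia, rose from 1.01 to 7.37 CPM, and Itgb5, another partner of Itgav, from 43.5 to 146 CPM. Itgb1 rose from 350 to 639 CPM. The summed level of 5 fibroblast markers was 484 CPM at E10.5 and 6140 CPM at E12.5, and its part was not tested. In bulk tissue, more cells of a type and more RNA per cell cannot be told apart. With the round as a block, Lamc1, Lamb3 and Itga10 also passed, in a fit where 48% of all genes did.

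Between E12.5 and E14.5, 18 members rose and 2 fell, where 14.3% of all genes rose and 13.2% fell, and the median member changed by 1.01 against 0.02 for all genes. All 4 laminin receptor chains rose, as did 4 of the 5 laminin alpha chains and 4 of the 5 beta and gamma chains. Itgb4 (chr11:115974709-116008412), the hemidesmosome chain, stood at 2.71, 1.8, 11.1 and 122 CPM over the 4 days and rose in this interval by 3.59 ± 0.34 (adjusted p = 0.0001631). Lama3 stood at 1.3, 0.44, 9.46 and 91.5 CPM and rose by 3.40 ± 0.23 (adjusted p = 3.67e-05). Lamb3 (chr1:193207699-193343878), which assembles with Lama3, stood at 1.2, 0.836, 1.75 and 38.9 CPM and rose by 4.60 ± 0.40 (adjusted p = 0.0001097). These 3 genes were lowest at E10.5 and highest at E14.5. Their order matches that of the keratinocyte marker sum given above, and the part of that sum was not tested. Lama5 rose from 52.2 to 302 CPM, Itga3 from 25.2 to 99.3 CPM and Itga6 from 108 to 232 CPM, while between E10.5 and E12.5 none of these 3 passed, with log2 changes of 0.15, 0.14 and -0.06.

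Members typical of other tissues also rose up to E14.5. Itga7 rose from 8.25 to 26.5 CPM, beside a summed level of 5 skeletal muscle markers of 1440 and 2720 CPM. Within that sum Myh3, Des and Actc1 rose, while Myod1 fell from 83.1 to 33 CPM and Myog from 157 to 86 CPM. The part of these markers was not tested. Itga1, a collagen receptor chain of muscle, vessels and fibroblasts, rose from 24.6 to 69.8 CPM (1.63 ± 0.16, adjusted p = 0.0002238), and Lama2, the alpha chain of the muscle basement membrane, from 33.6 to 66.8 CPM. Lama4 rose to 391 CPM, Lamb1 from 300 to 550 CPM, Lamb2 from 98.2 to 196 CPM and Lamc1 from 249 to 573 CPM. The 2 that fell were Itgb8, from 24.8 to 4.16 CPM, and Itga9, a receptor chain for tenascin and other ligands, from 137 to 90.2 CPM (not called by DESeq2, adjusted p = 0.08043). The calls of Itgb1 (0.44 ± 0.14, adjusted p = 0.04544) and Itgb7 were lost without 1 AGM library, any of the 6 for Itgb1 and any of those labelled E9.5 or E10.5 for Itgb7 (adjusted p up to 0.0733 and 0.0682). With the round as a block, Itgb3, Itga4, Itgav and Lama1 also passed, as did 45.2% of all genes. When the ES libraries were entered as replicates of their labelled day, no member passed in any comparison with skin, in a fit of all 14 libraries by edgeR. None of the 20429 genes tested passed either. That fit had 0, 1 and 2 members at an unadjusted p under 0.05 in these 3 intervals.

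**Figure D3:**
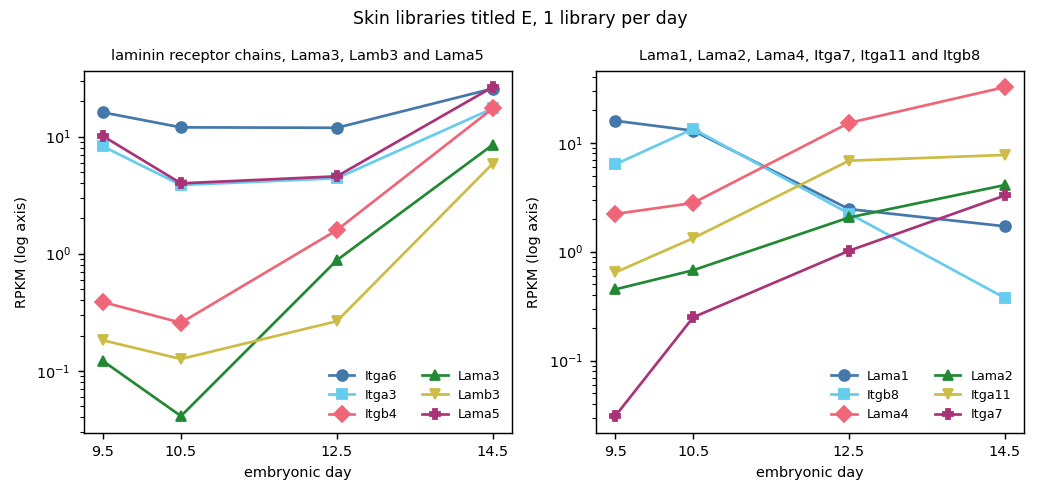
RPKM on a log axis against embryonic day in the 4 skin libraries titled E, 1 point per library. The left panel holds the laminin receptor chains Itga3, Itga6 and Itgb4 with Lama3, Lamb3 and Lama5, which are all highest at E14.5, and the right panel holds Lama1 and Itgb8, which end below their start, with Lama2, Lama4, Itga7 and Itga11, which end above it.

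The AGM libraries were compared by the same test in a fit of the 6 AGM libraries over 17613 genes. Between the libraries labelled E9.5 and E10.5 the number of members past the threshold depended on whether the sequencing round was a block in the fit. Without the block none was higher and 2 of 33 were lower in those labelled E10.5, where 0.874% of all genes were higher and 1.72% lower. Lama4 was 84.8 and 79 CPM in the libraries labelled E9.5 and 56.1 and 57.2 CPM in those labelled E10.5 (-0.48 ± 0.10, adjusted p = 0.04557). Itga11 was 25.5 and 15.7 CPM against 8.2 and 9.33 CPM (-1.18 ± 0.23, adjusted p = 0.0415). The pairs do not overlap in either gene, but the share of all genes of which this holds was not counted. Leaving out any 1 of the 6 libraries ended the call of Lama4 (adjusted p up to 0.322). That of Itga11 ended without the first library labelled E9.5, either of those labelled E10.5 or the first labelled E11.5 (up to 0.235). The 2 rounds differed alike at each age (r of 0.429 to 0.605 across 15747 genes), and with the round as a block 14 members passed, with 3 higher (Lama1, Lama5 and Itga6) and 11 lower, where 24.1% of all genes passed against 2.59% without the block. The lower ones then included Itgav (-0.40, adjusted p = 0.000325), Lamc3 (-1.43, adjusted p = 0.001721) and Itgb5 (-0.31, adjusted p = 0.001944).

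Between the libraries labelled E9.5 and those labelled E11.5 most members differed: 6 of 33 were higher and 18 lower in the latter, where 21.1% of all genes were higher and 24% lower. The median member differed by -0.45 on the log2 scale against 0 for all genes. Since the timing genes run against these labels, the direction is that of the labels only. The members higher in the libraries labelled E11.5 were the laminin chains Lama1, Lama5 and Lamb3 and the integrin chains Itga3, Itga6 and Itgb8, while Lama3 was among the lower (-0.86, adjusted p = 0.01646) and Itgb4 was not past the threshold (-0.12). Lama5 was 76.8 and 61.3 CPM in the libraries labelled E9.5, 81.1 and 80.6 CPM in those labelled E10.5 and 185 and 144 CPM in those labelled E11.5 (1.40 ± 0.15, adjusted p = 0.0002719). Itga3 was 43.5 and 32.3, 38.8 and 36.6, and 78 and 74.9 CPM in the same order (1.16 ± 0.14, adjusted p = 0.0004831). Itgb8 was 16.7 and 16.4, 13.8 and 17.3, and 32.6 and 34.5 CPM (1.17 ± 0.13, adjusted p = 0.0003015). In all 3 genes the 2 libraries labelled E11.5 lay above the other 4, a description only, since the share of all genes with this order was not counted. Itga6 (0.63 ± 0.10), Lama1 (0.70 ± 0.15) and Lamb3 (1.18 ± 0.34) were the other 3, and that of Lamb3, at 1.49 and 1.19 against 3.18 and 2.32 CPM, was lost without either library labelled E9.5 or the first labelled E11.5 (adjusted p up to 0.124).

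Of the 18 members lower in the libraries labelled E11.5, 3 were among the 5 leukocyte chains tested, 2 were the alpha chains Itga4 and Itga9, 2 were among the 3 RGD-binding alpha chains and 2 among the 4 collagen receptor chains. Lama2 was 42.8 and 31.9 CPM in the libraries labelled E9.5, 24.8 and 26.9 CPM in those labelled E10.5 and 2.78 and 2.51 CPM in those labelled E11.5 (-3.67 ± 0.19, adjusted p = 1.253e-05). Itga4, the alpha chain that binds VCAM-1 and fibronectin and serves blood cell migration, was 79 and 89.1, 63.3 and 77.4, and 9.99 and 11.7 CPM (-2.81 ± 0.14, adjusted p = 1.18e-05). Itga11 was 1.17 and 1.44 CPM in the libraries labelled E11.5, which is -3.84 ± 0.28 from those labelled E9.5 (adjusted p = 4.661e-05). In all 3 genes the 2 libraries labelled E11.5 lay below the other 4, an order whose share over all genes was likewise not counted. Lama4 was 23.4 and 25.8 CPM there (-1.59 ± 0.10), Itga8 14.1 and 16.7 CPM against 42.2 and 40.2 CPM (-1.28 ± 0.13), and Itgav 47.2 and 44.7 CPM against 105 and 94.6 CPM (-0.97 ± 0.10). Itgam, a chain of macrophages and neutrophils, had 2 and 0 reads in the libraries labelled E11.5, against 68 reads in the pair labelled E9.5, a ratio of 29.3 with a 95% exact counting interval of 7.79 to 246. The summed level of 6 leukocyte markers was 6.77 and 8.78 CPM in the libraries labelled E11.5 against 75.1 and 88.2 CPM in those labelled E9.5. The fibroblast markers summed to 1030 and 1090 CPM against 1600 and 2450 CPM. Among them Col1a2, Dcn and Pdgfra were lower, Col1a1 overlapped, and Postn was higher, at 147 and 217 against 99.4 and 106 CPM. The part of either list in these differences was not tested.

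The members not past the threshold between these ages included the widespread laminin chains Lamb1 and Lamc1 and the fibronectin receptor chain Itga5. Lamb1 was 277 and 241 CPM in the libraries labelled E9.5 and 239 and 222 CPM in those labelled E11.5 (-0.02 ± 0.11, adjusted p = 0.8773), Lamc1 was 297 and 240 against 288 and 241 CPM (0.13 ± 0.14), and Itga5 was 130 and 113 against 106 and 91.1 CPM (-0.15 ± 0.13, past the threshold with the round as a block, adjusted p = 0.0207, in a fit where 61.7% of all genes were). Itgb1, the common beta chain, was among the lower, at 486 and 501 against 322 and 367 CPM (-0.38 ± 0.10, adjusted p = 0.01586). Its call was lost without the second library labelled E9.5 or the first labelled E11.5 (adjusted p up to 0.11), those of Itgb5 and Lama3, both lower, without the first labelled E9.5 or the second labelled E11.5 (up to 0.129 and 0.0836), and that of Itga7, lower, without the second labelled E9.5 or either labelled E11.5 (up to 0.103) and by DESeq2. Between the libraries labelled E10.5 and E11.5, 5 members were higher and 12 lower, where 11.8% of all genes were higher and 15.4% lower. Those 5 were Itga3, Itga6, Itgb8, Lama5 and Lamb3, and Lama2 (-3.19 ± 0.19) and Itga4 (-2.61 ± 0.14) were again among the lower, beside Itgam with 37 reads in the pair labelled E10.5 (ratio 17, counting interval 4.39 to 146). In this comparison the calls of Itga1 and Lamb2 were lost without any 1 of these 4 libraries and that of Itga6 without either of the first round. That of Itgb6 was lost without the second labelled E10.5 or the first labelled E11.5, with log2 changes of -4.67 to -1.64 over the fits without 1 library (adjusted p up to 0.169 over the 4 genes). With the round as a block, Itgb1, Itgb2, Lama1 and Lamc1 also passed, as did 48.2% of all genes.

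**Figure D4:**
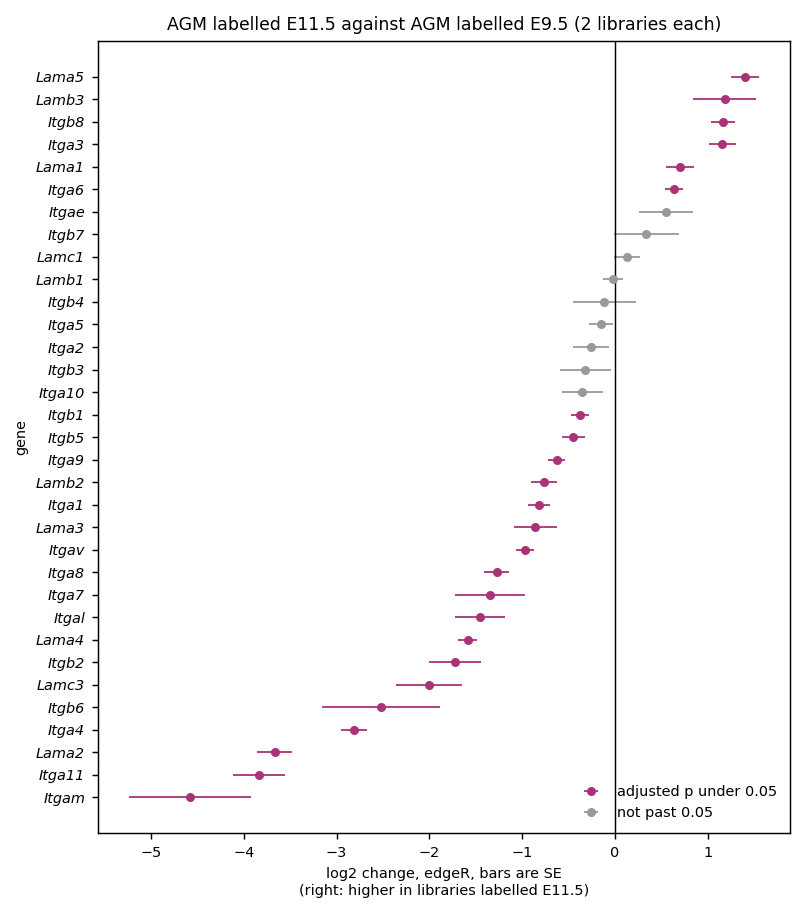
Log2 change of each of the 33 tested members in the 2 AGM libraries labelled E11.5 against the 2 labelled E9.5, with SE bars, from edgeR, with purple points past an adjusted p of 0.05. Lama5, Itgb8 and Itga3 lie on the right, and Itgam, Itga11, Lama2 and Itga4 lie farthest to the left.

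AGM was compared with the skin titled E at the 2 ages that both have. At E9.5, 16 of 33 members were higher in AGM and 4 lower, where 18% of all genes were higher and 15.9% lower, and the median member differed by 0.62 against 0.04 for all genes. Itgb8 was 16.7 and 16.4 CPM in AGM and 70 CPM in skin (-2.13 ± 0.14, adjusted p = 4.051e-05), and Lama5, Lama1 and Itga6 were the other 3 lower in AGM. Lama4 was 84.8 and 79 CPM against 26.8 CPM (1.56 ± 0.13), Lama2 42.8 and 31.9 against 7.38 CPM (2.29 ± 0.22), Itga4 79 and 89.1 against 26.9 CPM (1.59 ± 0.17) and Itgb2, the common chain of the leukocyte integrins, 4.06 and 2.88 against 0.351 CPM (3.24 ± 0.46). The call of Itga1 (0.62 ± 0.15) was lost without the first AGM library labelled E9.5 (adjusted p = 0.0545). This comparison rests on the labels of the AGM libraries. With those labelled E11.5 set against the skin at E9.5 instead, an alternative chosen after seeing the data, 8 members passed, with 3 higher and 5 lower, where 4.06% of all genes were higher and 2.79% lower. Lama4 then differed by 0.00 (SE 0.12), and Lama2 and Itga4 turned to -1.35 and -1.19.

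At E10.5, 14 members were higher in AGM and 3 lower, where 11.7% of all genes were higher and 12.2% lower. The 3 lower were Itgb8, at 13.8 and 17.3 CPM in AGM against 149 CPM in skin (-3.24 ± 0.14, adjusted p = 3.669e-06), Lamc3, at 4 and 5.35 against 33.1 CPM (-2.81 ± 0.38), and Itga7. Lama3 was 3.18 and 2.52 CPM in AGM against 0.44 CPM in skin (2.69 ± 0.34), and Lamb1 was 241 and 227 against 108 CPM (1.12 ± 0.13). The neural marker sum was 317 and 331 CPM in these AGM libraries against 1810 CPM in the skin library, and its part in the difference of Itgb8 was not tested. The calls of Itga3 and Itgb3 were lost without the first AGM library labelled E10.5 and that of Itgal without the second. That of Itga7 was lost without either of these or the first labelled E11.5, and that of Lamb2 without the first labelled E10.5 or either labelled E11.5 (adjusted p up to 0.146 over the 5 genes). With the round as a block, Itga3, Itga5, Itga10 and Itgb1 also passed at E9.5, and Itga10, Itgb1 and Lamc1 at E10.5, where the share of all genes past the threshold was 51.3% and 42.6%. The difference between the change from E9.5 to E10.5 in AGM, by its labels, and that in skin was tested too. It was higher for 2 members and lower for 7, where 2.63% and 5.04% of all genes were higher and lower. With the round as a block it was past the threshold for 18 members and for 25.8% of all genes. Lama5 fell from 115 to 45.4 CPM in skin and was 76.8 and 61.3 against 81.1 and 80.6 CPM in AGM, a difference between the changes of 1.63 ± 0.26 (adjusted p = 0.009405).

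The skin libraries titled ES differed from those titled E in many members, and their members differed little between days. Both held over all genes too. Correlations between ES libraries were 0.963 to 0.991 across 15747 genes, against 0.832 to 0.976 between those titled E. Between a library titled E and one titled ES they were 0.601 to 0.716. Over the 8 skin libraries, with the day as a term, 15 of 33 members were higher in the ES libraries and 3 lower, where 29.5% of all genes were higher and 29.3% lower. Of the higher ones, Itga7, Itgam, Itgax, Itgb2 and Itgb7 passed the count filter only through the ES libraries, where they are high. In either direction 54.5% of the members tested passed, against 58.8% of all genes. The median member differed by 0.84 against -0.01 for all genes. This fit has a coefficient of variation of 40.3%. The title and the sequencing project go together, so they cannot be told apart. Itgb3, the partner of Itgav in the vitronectin receptor, was 8.28, 10.6, 15.2 and 28 CPM in the libraries titled E and 378, 385, 382 and 419 CPM in those titled ES, from E9.5 to E14.5 (5.14 ± 0.35, adjusted p = 0.0003208). Itgb1 was 401, 350, 639 and 794 CPM against 2460, 2950, 1910 and 2600 CPM (2.58 ± 0.36, adjusted p = 0.001999). Itga5 was 85.7, 62.2, 158 and 144 CPM against 469, 594, 564 and 691 CPM (2.78 ± 0.28, adjusted p = 0.0007043). In these 3 genes every ES library lay above every library titled E. Itga5 with Itgb1 is the classical fibronectin receptor.

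Itgav was 317, 324, 271 and 380 CPM in the ES libraries against 61.8, 68.5, 125 and 131 CPM (2.15 ± 0.26), Itgb5 was 258 to 295 against 43.5 to 210 CPM, and Lamb1 was 845 to 1000 against 108 to 550 CPM (2.28 ± 0.41). Among the collagen receptor chains, Itga10, known from cartilage, was 21.4 to 27.8 against 2.99 to 6.08 CPM (2.80 ± 0.30, adjusted p = 0.0008664) and Itga2 was 27.2 to 35.9 against 5.77 to 30.8 CPM, while Itga1 and Itga11 were not past the threshold. Itga7 was 35.3 to 53.8 CPM in the ES libraries, above all 4 of those titled E, where it was 0.251 to 26.5 CPM (3.82 ± 1.21, adjusted p = 0.0359, and 0.05219 without the day term). It passed the count filter only through the ES libraries, where it is high, so its call adds no support. The 5 skeletal muscle markers summed to 43.5 to 87.7 CPM in the ES libraries and to 120 to 2720 CPM in those titled E. In the ES libraries most of that sum was Actc1, an actin of heart and developing muscle, at 40.8 to 83.7 CPM, while Des was 2.27 to 3.99 CPM, Myh3 was below 1 CPM and the muscle factors Myod1 and Myog were at 0. The part of these markers in the result was not tested. Lama1 was 1.02, 1.28, 1.03 and 2.27 CPM against 154, 125, 23.8 and 16.5 CPM (-4.98 ± 0.85, adjusted p = 0.003894), Itga9 was 16.7 to 27.5 against 90.2 to 137 CPM (-2.13 ± 0.26) and Itga3 was 9.07 to 10.8 against 22.1 to 99.3 CPM (-1.67 ± 0.46). The levels of Itgb4 and Lama3 did not follow the day as in titles E: Itgb4 was 3.4, 3.35, 5.17 and 2.59 CPM from E9.5 to E14.5 and Lama3 1.93, 1.71, 1.62 and 1.17 CPM. Itgb6 did not pass the count filter over the skin libraries and was not tested. It was 0.113, 0.0712, 0.295 and 0 CPM in the ES libraries and 0.452 to 8.28 CPM in those titled E.

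In all, 12 of the 34 symbols (35.3%) lay higher in every ES library than in any titled E, and 5 (14.7%) lay lower, where 20.9% and 32.6% of the 24259 genes with at least 10 reads over the skin libraries did so. Among these symbols, Itgax reached 10 reads through the ES libraries alone and Itgb6 through those titled E alone. The calls of Itga3, Itgb5, Itgb7, Itga7, Itgam and Lama2 were lost in 1 to 6 of the fits without 1 skin library (adjusted p up to 0.122). The call of Itgam was lost without the ES library of E10.5, and those of Itga3 and Itgb5 without either library of E9.5. That of Itga7 was lost without a library of E10.5 or E12.5, and those of Itgb7 and Lama2 without one of E9.5, E10.5 or E12.5.

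**Figure D5:**
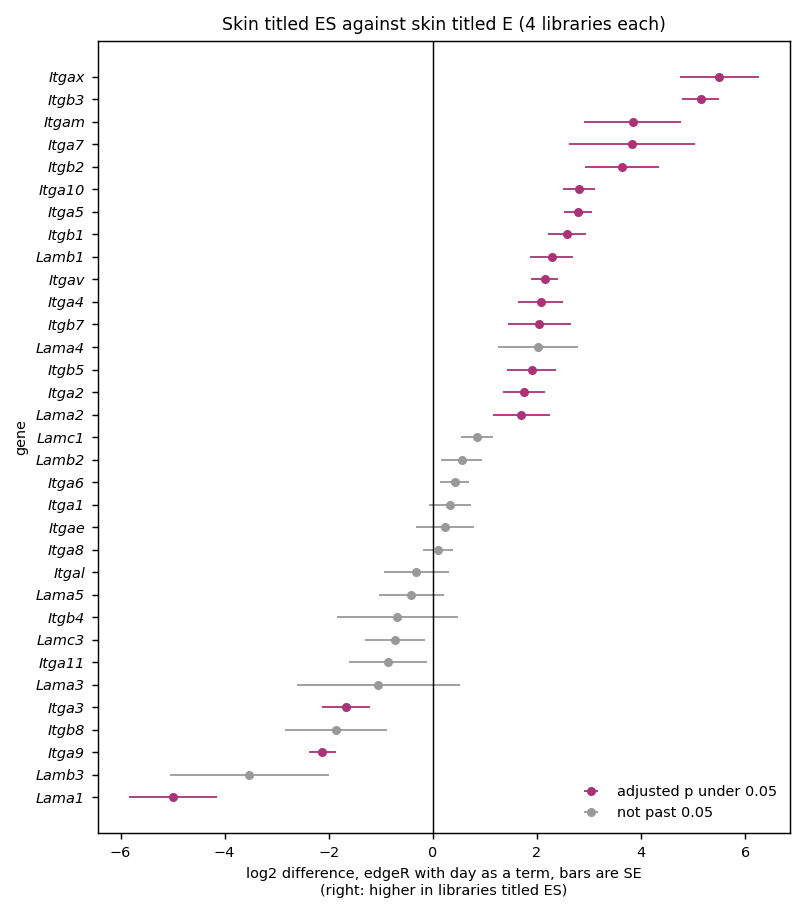
Log2 difference of each of the 33 tested members between the 4 skin libraries titled ES and the 4 titled E, with SE bars, from edgeR with the day as a term, with purple points past an adjusted p of 0.05. Itgax and Itgb3 lie farthest to the right and Lama1 farthest to the left. Itgax, Itgam, Itgb2, Itgb7 and Itga7 passed the count filter only through the ES libraries, so their places are not read as results.

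Of the leukocyte chains, Itgb2, Itgb7, Itgam and Itgax were higher in the ES libraries. Itgb2 was 0.351, 1.14, 1.33 and 3.4 CPM in the libraries titled E and 14.4, 18.5, 7.83 and 10.6 CPM in those titled ES (3.63 ± 0.70, adjusted p = 0.00625), so that the titles do not overlap. Itgam was 0.1, 0.308, 0.667 and 1.48 CPM against 10.2, 7.33, 3.4 and 4.34 CPM (3.83 ± 0.93). Itgax, a chain of dendritic cells and some macrophages, held 0, 0, 3 and 1 reads in the libraries titled E and was 2.04, 0.854, 1.62 and 2.33 CPM in those titled ES. It passed the count filter through the ES libraries alone, where it is high. Its call therefore adds no support, and no fold is given. Itgb2, Itgb7 and Itgam also passed the filter only through the ES libraries, since too few libraries titled E reached it. Their calls add no support either, and their levels are a description. Itgal, of T cells and other leukocytes, and Itgae, of epithelial T cells, were not past the threshold there, at 0.777 to 1.47 and 0.389 to 1.77 CPM in the ES libraries. The 6 leukocyte markers summed to 50.7 to 112 CPM in the ES libraries and 5.92 to 115 CPM in those titled E. Cx3cr1, the marker of resident macrophages among them, was 0 to 0.57 CPM in the ES libraries and 22.2 and 24.5 CPM in those titled E at E12.5 and E14.5, while Cd68, of the lysosomes of macrophages, was 19.8 to 43.1 against 2.86 to 8.51 CPM. The part of these markers in the result was not tested.

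Itgam and Itgax are neighbours on chromosome 7, and the 250 bases before their starts are shown, from RefSeq for GRCm38.p6, on the plus strand. The PU.1 core GAGGAA, searched on both strands, is in capitals, with TTCCTC where it lies on the other strand. PU.1, the product of Spi1, is a transcription factor of myeloid cells. Spi1 was 2.15, 3.56, 1.62 and 2.53 CPM in the ES libraries from E9.5 to E14.5. In those titled E it was 0.251, 1.8, 4.21 and 7.16 CPM, so the titles overlap, and its part was not tested. The Itgam window is chr7:128062390-128062639 and holds 1 match on each strand. The Itgax window is chr7:128129300-128129549 and holds none. Of all 32851 windows of this length in the table, 23.3% hold a match, and 12 of the 25 windows of the 22 members in it do. A match is a description of the letters and not a site.
Itgam: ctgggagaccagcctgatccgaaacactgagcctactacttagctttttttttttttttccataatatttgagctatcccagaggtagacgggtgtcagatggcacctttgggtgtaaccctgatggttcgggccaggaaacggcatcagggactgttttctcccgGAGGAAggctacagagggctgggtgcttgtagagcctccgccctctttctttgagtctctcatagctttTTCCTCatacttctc
Itgax: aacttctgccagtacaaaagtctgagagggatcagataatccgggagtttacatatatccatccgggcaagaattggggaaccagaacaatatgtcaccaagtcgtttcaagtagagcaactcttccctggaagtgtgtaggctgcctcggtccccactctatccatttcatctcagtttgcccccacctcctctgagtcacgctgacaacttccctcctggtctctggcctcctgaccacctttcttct

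Partner genes in 2 lists were read beside the members. The 20 basement membrane partners hold collagen IV chains, nidogens, perlecan and cell surface partners. The 21 integrin adaptors and focal adhesion genes hold talins, kindlins, parvins and tensins. In skin titled E, 10 partners rose and 2 fell from E10.5 to E12.5, and 16 rose and 2 fell from E12.5 to E14.5. Of the adaptors, 10 rose and 1 fell in the first of these intervals, and 6 rose and 2 fell in the second. Of all genes, 17.4% rose and 12.7% fell in the first, and 14.3% rose and 13.2% fell in the second. Tnc, a matrix glycoprotein of mesenchyme that Itga9 binds, rose from 3.21 to 357 CPM by E12.5 (6.75 ± 0.29, adjusted p = 1.873e-05), after a fall from 43.6 to 3.21 CPM between E9.5 and E10.5. Bcam, a receptor of Lama5 laminins, rose from 50.2 to 338 CPM by E14.5 (2.88 ± 0.14), and Fermt1, the kindlin of epithelia, from 7.62 to 40.1 CPM (2.52 ± 0.23). Vtn, the gene of vitronectin, fell in both intervals, from 22.1 to 9.08 and to 2.82 CPM. From E9.5 to E10.5 no partner or adaptor rose, while 6 partners and 1 adaptor fell, the latter Fermt1 from 8.73 to 4.09 CPM. Of all genes, 4.64% rose and 1.79% fell there.

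In the AGM libraries labelled E11.5 against those labelled E9.5, 6 basement membrane partners were higher and 5 lower, and 3 adaptors were higher and 8 lower. Of all genes, 21.1% were higher and 24% lower. Col4a6 was 18.8 and 15.2 CPM in those labelled E9.5 against 39 and 40.4 CPM (1.36 ± 0.13), and Tnc was 161 and 114 against 28.1 and 29.4 CPM (-2.12 ± 0.16). Fermt1 was 2.44 and 2.47 in those labelled E9.5 and at least 11.9 CPM in those labelled E11.5 (2.57 ± 0.18), and Tns3, a tensin, 335 and 269 against 114 and 97.7 CPM (-1.36 ± 0.15). In the ES libraries against those titled E, 8 partners were higher and 8 lower, and 7 adaptors were higher and 3 lower. Of all genes, 29.5% were higher and 29.3% lower. Tnc was 7910, 10500, 6510 and 12400 CPM in the ES libraries against 43.6, 3.21, 357 and 186 CPM. Vtn had no read in the 4 ES libraries and 1048 in those titled E, which makes it at least 177-fold higher in the latter (floor of 3 counts over the group). Fermt1 was at most 0.68 CPM in the ES libraries against 4.09 to 40.1 CPM (-4.69 ± 1.19), and Plec, a linker of hemidesmosomes and other adhesions, was 422 to 789 against 117 to 403 CPM (2.08 ± 0.36).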

How the data were processed

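RNA of 14 libraries was measured, and the count table that the authors deposited holds raw read counts per gene. Per the submitters' processing notes, Trimmomatic 0.36, STAR 2.5.0a, featureCounts 1.6.0 and DESeq2 1.20.0 were used with GRCm38/mm10; their settings and the strand of counting are not given in the sources used here. The AGM columns of the second round give a number and no age; each took the age that its number has in the first round, an assumption. CPM used library totals, and RPKM used the union of exons in GENCODE M21, where 32 of the 35 gene IDs have the coordinates of the table.

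The test was edgeR 4.0.16, run under R 4.3.3 (filterByExpr, TMM, glmQLFit, glmQLFTest, two-sided), with Benjamini-Hochberg adjustment over all genes tested and a threshold of 0.05. The 3 fits held the 6 AGM libraries, the 10 AGM and titled E libraries, and the 8 skin libraries with the day as a term; each has 3 residual degrees of freedom. A lone library is assumed to vary like the replicated ones. AGM round numbers were taken as pairs, since same-round deviations correlated at each pair of ages and the labels name a project for each round. Alternatives were median-of-ratios scaling, DESeq2 1.42.0, limma-voom 3.58.1, no count filter, the block or no day term, each library left out, and all 14 libraries. Scripts were tested on simulated data. All 34 members are described, and partner genes named are those called with the largest change in each direction at a mean of at least 5 CPM. Members and lists were chosen with earlier results of these data known. Precision is set by depth: 3 reads, the floor used for a group at 0, equal 0.102 to 0.443 CPM per library, and counting intervals cover counting error only.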

Additional observations from a re-analysis of the deposited data

Results flagged for a closer look

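For 9 members the change between E9.5 and E10.5 differed between AGM, by its labels, and the skin titled E, in a test of the difference itself (edgeR, adjusted p under 0.05 over 19945 genes). The difference, AGM minus skin, was 1.63 for Lama5 and 1.15 for Itga3, which fell in skin. It was -1.11 for Itgb8 and -3.3 for Itga7, which rose in skin, -2.84 for Lamc3, -2.6 for Itgb2, -2.21 for Itga11, -0.85 for Itga1 and -0.8 for Lama4. In AGM, Itga11 and Lama4 were the members past the threshold between these labels without the round as a block. The skin days are single libraries and the timing genes run against the AGM labels, so the direction is that of the labels. The calls of Itgb2, Itga3, Lama4 and Itga1 were each lost in 3 to 6 of the fits without 1 AGM library (adjusted p up to 0.12).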

How the results depend on the processing

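Between AGM labelled E10.5 and E9.5 the count of 2 members became 0 with median-of-ratios scaling (8 at an unadjusted p under 0.05), 4 by DESeq2, 1 by limma-voom, 6 without the count filter, 14 with the replicate block and 0 to 2 without 1 library. For skin at E10.5 against E9.5 the 5 became 10 without the filter and 16 with the replicate block, and for the difference of the changes the 9 became 5 by limma-voom, 18 with the block and 5 to 9 without 1 library. Counts without 1 library ranged from 13 to 17 and from 21 to 24 for AGM labelled E11.5 against E10.5 and against E9.5. The number of all genes past the threshold also changed with the setting. Between AGM labelled E10.5 and E9.5 it was 457 of 17613 in the main fit and 420 with median-of-ratios scaling. It was 929 by DESeq2, 456 by limma-voom and 1769 of 32435 without the filter. For skin at E10.5 against E9.5 it was 1282 of 19945, and 2151 of 36027 without the filter. For the difference of the changes it was 1530, and 1174 by limma-voom. In the fit of all 14 libraries no member passed in any of the 6 comparisons with skin, and none of the 20429 genes did. That fit had 0 to 3 members at an unadjusted p under 0.05. With AGM labelled E11.5 in place of E9.5 against skin at E9.5 the count was 8 members, where 6.85% of all genes passed. The sign turned for 13 members. Of these, 8 had been called: Lama5 0.64, Lama2 -1.35, Itga4 -1.19, Itgav -0.3, Itga6 0.05, Itgam -1.02, Itga11 -1.22 and Itga1 -0.16. The other 5 had not, and 3 of them were then called (Itga3 0.82, Lamc3 -1.95 and Itga9 -0.46). The cause was not tested. Over all settings but the fit of all 14 libraries, 1591 entries for single called members kept call and direction. The direction alone was kept in 129, and the 8 named above were reversed. The blocked fits ended no call and had 19.4% to 61.7% of all genes past the threshold, against 2.59% to 45.2% without the block. Depth limits Itgax in AGM and titles E (0 to 3 reads) and Itgam in AGM labelled E11.5 (0 and 2 reads).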
